A study of Mus musculus with 7 samples.

Results

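LINE-1 (L1) elements are retrotransposons that copy themselves through an RNA, and an intact copy makes that RNA from a promoter at its own 5′ end. Most copies lost this end when they were inserted, so that reads on them can also come from any transcript that runs across them. The older rodent L1 loci described here carry RepeatMasker names that begin with L1_Mus, L1_Mur, L1_Mm, L1_Rod, L1VL or Lx, which are families that spread in rodents before the L1Md families still active in the mouse. Fetal male germ cells erase and then rebuild DNA methylation, and the piRNA pathway, in which PIWI proteins carry small RNAs that match transposons, directs methylation to L1 copies and cuts L1 RNA. The name rule selected 540804 of the 3494995 LINE, SINE and LTR loci of the deposited count table (15.5%), with 33 element names.

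The loci were measured by RNA-Seq of whole testes from C57BL/6 embryos at embryonic day 14.5 (E14.5), with the testes of 1 embryo per library (n = 3 labelled wild-type, n = 4 labelled Glis3 mutant). The mutants were homozygous for Glis3zf5, a null allele present in every cell, so that germ cells and somatic cells alike lacked an intact copy of this transcription factor gene. Ribosomal RNA was depleted, no poly-A selection was made, reverse transcription was started from random primers, and the strand of the RNA was not kept. Only uniquely mapped reads were counted, without molecular identifiers. Each library held between 3454317 and 4670830 counts over all repeat loci, and the older rodent L1 loci took between 9.31% and 10.3% of them. A single locus took from 0.964% to 7.02% of a library, and values below are CPM, read counts scaled to a common library size by TMM, unless stated.

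Glis3 reached 7.63, 6.89 and 2.91 FPKM in the replicates 1, 2 and 3 labelled wild-type, and 3.86, 3.26, 2.90 and 2.66 FPKM in mutant replicates 1 to 4. The library labelled wild-type replicate 3 thus lay within the mutant range, and values with this library left out are given beside many, but not all, of the counts of calls. Germ cell markers showed the same order: their mean log2(FPKM + 0.5) was 5.51, 5.36 and 4.29 in the replicates 1 to 3 labelled wild-type and between 3.95 and 4.33 in the mutants. All 14 germ cell markers had a lower fitted level in the mutants (median log2 fold change -0.90, against 0.01 over all 13988 genes), and 0 of them passed the limma test while 10 had an unadjusted p under 0.05. With wild-type replicate 3 left out, 11 of the 14 fell, as 3.99% of 14019 genes did. In whole testes, fewer germ cells and less RNA per germ cell cannot be told apart. Fetal Leydig cell markers had a median log2 fold change of 0.44 with 0 of 8 past the test (6 at an unadjusted p under 0.05), and Sertoli cell markers one of 0.14 with 0 of 10 past it (1 unadjusted). The medians were 0.24 for interstitial, -0.04 for endothelial, -0.18 for erythroid, 0.23 for macrophage, 0.54 for skeletal muscle and -0.12 for mesonephric markers, and none of these lists was at 0 in all libraries. The part of these cell types in the results below was not tested.

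Most of these loci were short and lay between genes. Their median length was 336 bp, they covered 295 Mb of mm10, and 2161 were at least 5 kb long. The Lx names held 346814 loci, L1_Mus 108700, L1_Mur 55961, L1VL 12585, L1_Rod 11315 and L1_Mm 5429. Only 122396 loci (22.6%) overlapped the span of a gene of the deposited FPKM table, against 39.3% of all other repeat loci. The limit of the locus test, an average of 1 read per library, was reached by 40665 loci (7.52%), of which 30777 lay inside gene spans and 9888 outside. Of the other loci 329534 held no read in any library, and when the 170605 with reads were tested too (edgeR with no read limit) 0 were called in either direction, while 1280 were higher and 663 lower at an unadjusted p under 0.05. Over all 211270 members with reads 2480 were higher and 1645 lower at that limit, against 17834 and 16837 of all 1495720 repeat loci with reads.

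Reads outside gene spans were concentrated at a few loci that carry processed pseudogenes, the copies of spliced mRNAs that the L1 machinery inserts into the genome. The 4 loci with the most reads outside spans took between 46.7% and 56.9% of all reads of older rodent L1 loci outside spans in each library, and all 4 overlapped a pseudogene exon of GENCODE M21. The 439 loci that did so held 22.8% of the reads of all members. The pseudogene sequences of the 5 loci with the most such reads are given because the annotation places them inside these loci. Counts were made per whole locus, so where in a locus the reads lay is not known. They were taken from GENCODE transcripts (GRCm38, the assembly of mm10) in the sense of the pseudogene, and capitals mark bases that differ from the best-matching mouse coding sequence.
Rpl7a-ps12 in Lx3B, chrX:152909286-152909465, minus strand: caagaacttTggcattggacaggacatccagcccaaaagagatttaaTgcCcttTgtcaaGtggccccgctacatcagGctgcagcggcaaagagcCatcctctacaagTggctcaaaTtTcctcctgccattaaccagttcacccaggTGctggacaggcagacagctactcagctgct
Gm6472 in the same Lx3B, chrX:152909941-152910120, minus strand: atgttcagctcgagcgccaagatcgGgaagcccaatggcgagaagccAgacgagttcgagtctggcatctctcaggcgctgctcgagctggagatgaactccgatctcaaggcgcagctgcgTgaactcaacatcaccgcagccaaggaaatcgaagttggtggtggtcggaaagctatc
Rps24-ps3 in L1_Mus1, chrX:79195047-79195226, plus strand: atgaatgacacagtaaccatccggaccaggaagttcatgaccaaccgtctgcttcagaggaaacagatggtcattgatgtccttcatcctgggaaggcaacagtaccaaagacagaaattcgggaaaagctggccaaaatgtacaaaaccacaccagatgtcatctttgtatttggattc
Gm4332 in Lx5, chr3:119709516-119709695, plus strand: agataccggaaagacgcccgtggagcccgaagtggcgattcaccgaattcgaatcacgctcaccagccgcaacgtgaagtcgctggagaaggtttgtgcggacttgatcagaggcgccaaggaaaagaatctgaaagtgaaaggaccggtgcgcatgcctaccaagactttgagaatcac
Gm6988 in L1_Mur2, chr12:110315990-110316169, plus strand: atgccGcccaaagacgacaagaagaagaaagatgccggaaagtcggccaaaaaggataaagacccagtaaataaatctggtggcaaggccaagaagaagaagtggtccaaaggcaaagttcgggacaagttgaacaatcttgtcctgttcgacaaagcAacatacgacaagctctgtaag
Gm16418 in Lx2, chr1:166431708-166431875, minus strand: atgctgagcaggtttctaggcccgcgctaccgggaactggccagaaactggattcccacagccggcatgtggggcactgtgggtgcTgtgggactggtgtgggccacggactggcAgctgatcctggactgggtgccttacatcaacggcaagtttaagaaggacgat

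All but Gm16418 match ribosomal protein genes. Over its full aligned length Rpl7a-ps12 was 94.6% identical to Rpl7a, Gm6472 99.5% to Rps7, Rps24-ps3 99.0% to Rps24, Gm4332 99.7% to Rps20 and Gm6988 97.6% to Rps25, which encode parts of the ribosome. Gm16418 was 98.8% identical to Uqcr11, a subunit of respiratory complex III. Gm6472 lies inside the pseudogene Rpl7a-ps12, which continues on its other side for 106 bases, and both lie within 1 Lx3B locus at chrX:152907041-152912611. Since the copies and their parent genes are near-identical, the share of these reads that came from the L1 locus itself is uncertain. The FPKM of the parent genes varied widely. Rpl7a and Rps7, the parents of the copies in the Lx3B locus, were at 10.7 ± 0.489 and 8.58 ± 0.840 FPKM (SD, n = 3) under the wild-type label and 9.15 ± 0.953 and 8.78 ± 0.616 FPKM (SD, n = 4) in the mutants. Under the wild-type label Rps24, Rps20, Rps25 and Uqcr11 were at 602 ± 63.7, 1490 ± 127, 36.0 ± 5.26 and 178 ± 11.3 FPKM (SD, n = 3).

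None of these 5 loci passed the test. The Lx3B locus on chromosome X held 7192, 11112 and 8850 CPM under the wild-type label and 10164, 9154, 11277 and 12098 CPM in the mutants (log2 fold change 0.24, SE 0.14, adjusted p = 0.980 from edgeR). Its groups overlapped, as did those of the L1_Mus1, Lx5, L1_Mur2 and Lx2 loci, whose log2 fold changes were 0.06, 0.10, 0.16 and 0.21. The sixth most read locus outside spans, Lx7 at chrX:64497926-64498452, overlaps no annotated exon. It held 298, 354 and 354 CPM under the wild-type label and 358, 567, 409 and 383 CPM in the mutants (log2 fold change 0.36, adjusted p = 0.819), and its groups did not overlap. In the smaller groups the locus with the most reads outside spans was L1_Rod at chr7:48155044-48155791, with 120, 80.7 and 46.4 CPM under the wild-type label and 138, 181, 83.0 and 82.2 CPM in the mutants. Those of L1VL (L1VL2 at chr17:22711855-22712561) and L1_Mm (chr5:109768829-109769957) had log2 fold changes of 0.10 and 0.29, and none of the 3 passed.

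Summed over loci, reads of older rodent L1 inside gene spans did not differ between the groups, while those between genes were higher in the mutants. Inside gene spans the sums were 55154, 55874 and 54853 CPM under the wild-type label and 55847, 57409, 55547 and 56506 CPM in the mutants. The log2 fold change was 0.03 (SE 0.04, adjusted p = 0.685, edgeR on a table of sums), and scaled by library size alone it was -0.045. The 7 libraries lay within a narrow range. Outside gene spans the sums were 32861, 42577 and 37665 CPM against 44505, 40120, 48729 and 50711 CPM, and the groups overlapped (log2 fold change 0.29, SE 0.10, adjusted p = 0.154).

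The reads outside spans were then divided by what GENCODE places there, a division chosen after the sums had been seen. At loci that overlap pseudogene exons they were 17358, 25370 and 20720 CPM under the wild-type label and 21966, 20708, 25460 and 26364 CPM in the mutants, which overlapped. In other annotated genes they were 4789, 5191 and 4813 CPM against 5601, 5316, 5730 and 5756 CPM. At the 378990 loci outside every gene span and annotated gene, called intergenic here, they were 10715, 12016 and 12132 CPM against 16938, 14096, 17539 and 18590 CPM. Every mutant library exceeded every library labelled wild-type in both of the latter classes.

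For intergenic loci the log2 fold change was 0.53 (SE 0.09, adjusted p = 0.0337 from edgeR), in a table of sums where 0.626% of rows were called higher. Without pseudogene exons, the sum outside spans had a log2 fold change of 0.44 (adjusted p = 0.0333). The fold change did not rest on the library labelled wild-type replicate 3: without it the intergenic value was 0.56, with adjusted p = 0.0868. Over all 7 libraries left out in turn it lay between 0.47 and 0.60, but the call was kept only without the library labelled wild-type replicate 2 or mutant replicate 2 (adjusted p = 0.0335 and 0.00293), and was lost without wild-type replicate 1 (0.208) and mutant replicates 1, 3 and 4 (0.134, 0.117 and 0.106). The share of all member reads that was intergenic was 12.2%, 12.2% and 13.1% under the wild-type label and 16.9%, 14.5%, 16.8% and 17.3% in the mutants (exact permutation test, two-sided, p = 0.0571, where 0.0286 is the smallest possible).

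**Figure D1:**
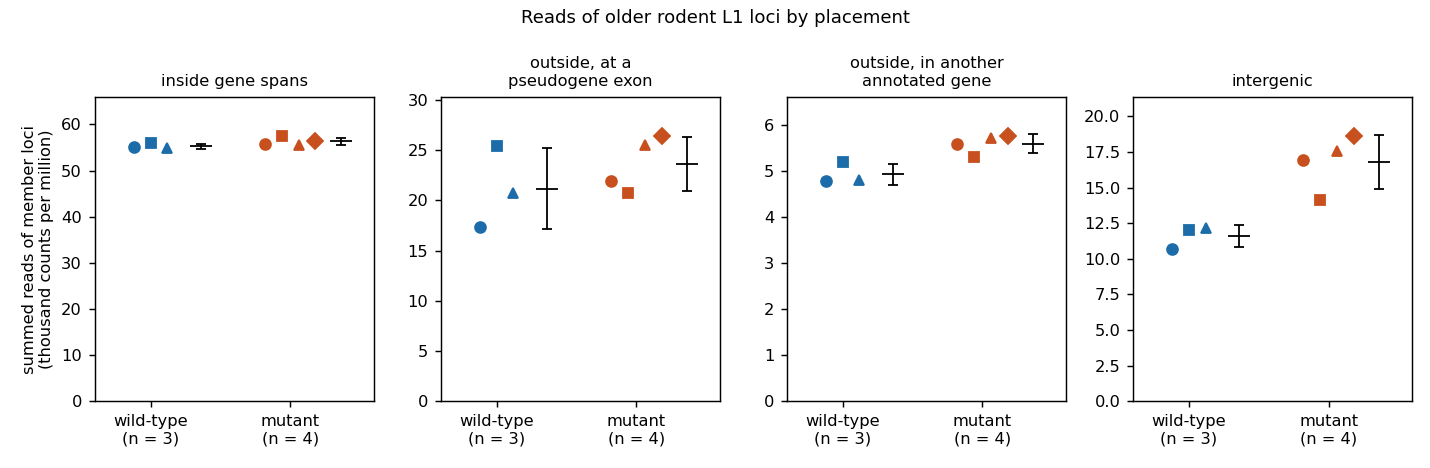
Summed CPM (axis in units of 1000 CPM, a separate vertical axis from 0 in each panel) of older rodent L1 loci in 4 placements; each symbol is 1 library, and the cross with caps shows the mean and SD of n = 3 libraries labelled wild-type and n = 4 mutants. Intergenic sums were 10715 to 12132 CPM under the wild-type label and 14096 to 18590 CPM in the mutants, while the sums inside gene spans differed little.

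The intergenic difference was spread over loci with very few reads. At the 7030 intergenic loci that averaged 1 read or more the sums were 6480, 7028 and 6129 CPM under the wild-type label and 7278, 7187, 7369 and 7266 CPM in the mutants. At the 371960 intergenic loci below that mean they were 4234, 4988 and 6003 CPM against 9660, 6909, 10171 and 11324 CPM. The ratio of the group means was 1.11 for the first set and 1.88 for the second, and the groups did not overlap in either. The low-count loci inside gene spans also held more in the mutants, with 3523, 3383 and 3403 CPM against 4290, 3790, 4024 and 4680 CPM.

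The difference was of nearly the same size on every autosome. Per Mb of intergenic member sequence, every mutant library exceeded every library labelled wild-type on all 19 autosomes. The difference between group means was lowest on chromosome 18, at 24.7 CPM per Mb, and highest on chromosome 9, at 30.8 CPM per Mb. The levels under the wild-type label varied more, from a mean of 43.6 CPM per Mb on chromosome 14 to 84.9 CPM per Mb on chromosome 7. On chromosome X the difference was 14.99 CPM per Mb and on chromosome Y 1.93 CPM per Mb, the latter over sequence where few reads can map uniquely.

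Male cells carry a single X chromosome. At the low-count intergenic loci the density on X divided by that on autosomes was 0.505, 0.503 and 0.479 under the wild-type label and 0.493, 0.495, 0.475 and 0.464 in the mutants, so each library had about the same ratio. At low-count loci inside gene spans it was between 0.776 and 0.998. Intergenic loci of other repeats with few reads had 20119 ± 1358 CPM (SD, n = 3) under the wild-type label and 29207 ± 4719 CPM (SD, n = 4) in the mutants, and their X to autosome ratio was between 0.417 and 0.445. Whether the reads at low-count loci came from RNA or from genomic DNA was not tested.

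**Figure D2:**
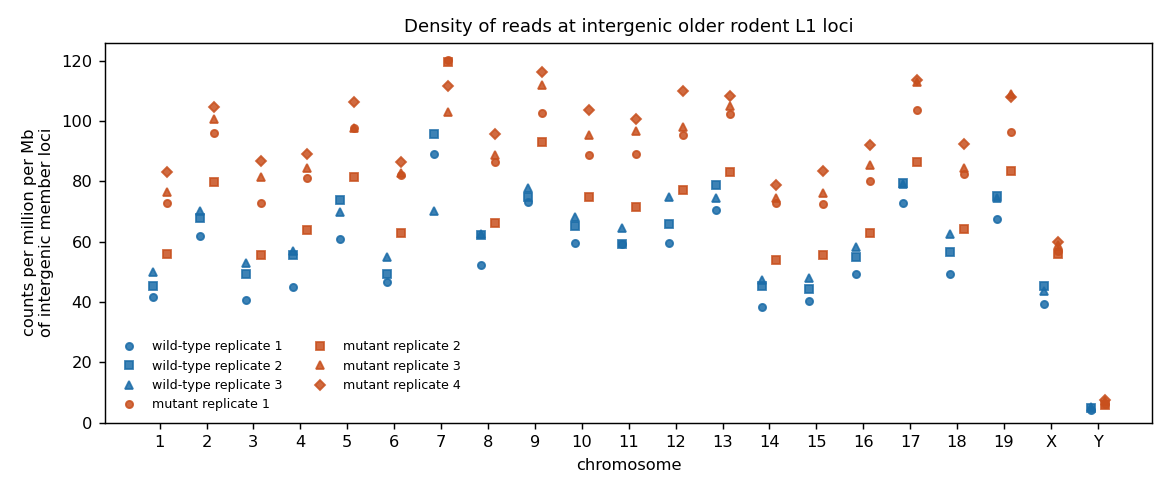
CPM per Mb of intergenic older rodent L1 sequence on each chromosome; each symbol is 1 library. The mutant symbols lie above those of the libraries labelled wild-type on all 19 autosomes, by 24.7 to 30.8 CPM per Mb between group means, and by 14.99 CPM per Mb on chromosome X.

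Long and short copies showed the same direction. Intergenic loci of up to 200 bp held 55.8 ± 4.60 CPM per Mb (SD, n = 3) under the wild-type label and 73.5 ± 7.14 CPM per Mb (SD, n = 4) in the mutants, a ratio of 1.32. At the 1585 intergenic loci of at least 5000 bp, which come closest to the length of a whole L1, the values were 46.2 ± 6.48 and 74.5 ± 12.1 CPM per Mb, a ratio of 1.61. The ratios of the 4 classes between them lay from 1.38 to 1.51 and the groups overlapped in none of the 6 classes.

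Relative to all other repeats, member reads were also higher in the mutants at intergenic loci. The log2 ratio of member reads to other repeat reads there was -2.55, -2.59 and -2.42 under the wild-type label and -2.17, -2.28, -2.24 and -2.17 in the mutants. The difference of 0.30 in the group means passed the exact permutation test at the smallest p it allows (two-sided, p = 0.0286). Per Mb of intergenic sequence, however, the gain was similar. Group means were 54.8 CPM under the wild-type label and 79.1 CPM in the mutants for members, and 138 and 162 CPM for other repeats. A like gain on a lower starting level gives members the larger ratio, so the rise per Mb was not particular to them. Inside gene spans the same ratio differed by -0.02 (exact permutation p = 0.857), and outside spans with pseudogenes included by 0.11 (exact permutation p = 0.114).

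The name groups were then tested, each inside and outside gene spans, in a table where 0.606% of 1485 rows were called higher. Outside spans L1_Rod rose, with 399, 388 and 340 CPM under the wild-type label and 494, 505, 485 and 456 CPM in the mutants (log2 fold change 0.37, SE 0.07, adjusted p = 0.0482 from edgeR). With wild-type replicate 3 left out its adjusted p was 0.176, and the call was also lost without wild-type replicate 1 or mutant replicate 1, 3 or 4. Part of the L1_Rod rise came from its most read locus, at chr7:48155044-48155791. That locus had means of 82.4 CPM under the wild-type label and 121 CPM in the mutants, with overlapping groups, against 376 and 485 CPM for all of L1_Rod outside spans. L1VL had 954, 982 and 1022 CPM against 1267, 1109, 1338 and 1344 CPM (log2 fold change 0.36, adjusted p = 0.0515). Neither group overlapped.

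The larger groups had smaller fold changes outside spans, and each of them contains a pseudogene locus named above. Lx had a log2 fold change of 0.30 (adjusted p = 0.148), L1_Mur of 0.27 (0.221) and L1_Mus of 0.25 (0.215). At intergenic loci, where those pseudogenes do not count, the values were 0.52 for Lx (adjusted p = 0.0331), 0.45 for L1_Mur (0.0520) and 0.61 for L1_Mus (0.0502). There no group overlapped, L1_Rod and L1VL had 0.47 and 0.44, and Lx was the one group of 6 past the threshold. Inside gene spans 5 groups lay between -0.03 and 0.05.

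L1_Mm was the exception inside genes. Its loci inside spans had 365, 366 and 403 CPM under the wild-type label and 244, 263, 362 and 248 CPM in the mutants (log2 fold change -0.44, SE 0.13, adjusted p = 0.121), with no overlap. Without mutant replicate 3 it passed the threshold, at -0.59 and adjusted p = 0.0176. Without chromosome Y, an alternative chosen after its values were seen, the log2 fold change was 0.03, since most of the difference came from 8 loci in the span of Erdr1 that are described below. Outside spans L1_Mm had 68.1, 91.5 and 98.6 CPM against 135, 96.5, 136 and 138 CPM (log2 fold change 0.56, adjusted p = 0.121), and mutant replicate 2 lay among the libraries labelled wild-type.

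**Figure D3:**
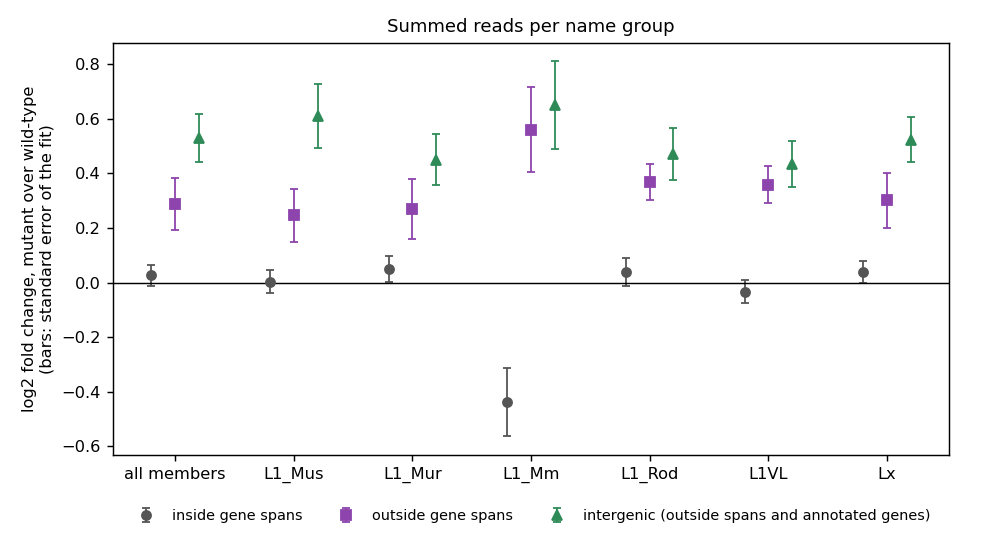
Log2 fold change (mutant over wild-type, edgeR) of summed reads of all members and of the 6 name groups inside gene spans, outside them and at intergenic loci; bars are standard errors of the fit. Intergenic values lie between 0.44 and 0.65, while inside spans all but L1_Mm (-0.44) lie near 0.

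Among the 33 element names, all had a positive fold change outside spans, as had 644 of all 736 names there. The median was 0.42, against 0.22 for the 703 other repeat names. Of the 33, 10 rose past the threshold outside spans, as did 18 of all 736 names there (1.17% of all 1539 names and placements were called higher). Inside spans 0 of the 33 passed it in either direction, the median was 0.03, no name was higher at an unadjusted p under 0.05, and DESeq2 called 1 name lower. The mutant libraries all exceeded the libraries labelled wild-type for 25 of the 33, as for 23.0% of all 736 names outside spans. Leaving out 1 library turned the count of 10 into 0 for the library labelled wild-type replicate 1, that labelled wild-type replicate 3 and mutant replicates 1, 3 and 4, into 26 for wild-type replicate 2 and into 28 for mutant replicate 2. All 33 fold changes stayed positive each time, and without the library labelled wild-type replicate 3 the lowest adjusted p was 0.0567 while 27 names had an unadjusted p under 0.05.

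The highest fold changes belonged to Lx names. Lx2B had 114, 121 and 150 CPM under the wild-type label and 212, 164, 215 and 235 CPM in the mutants (log2 fold change 0.69, SE 0.13, adjusted p = 0.0391). Lx3_Mus had 266, 303 and 332 CPM against 485, 382, 500 and 558 CPM (0.68, adjusted p = 0.0334). Lx3A had 250, 262 and 296 CPM against 413, 367, 426 and 470 CPM (0.64, adjusted p = 0.0248). In each of the 3 the lowest mutant was replicate 2, and it was still above the highest library labelled wild-type.

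The other names that rose were L1_Mus4 (0.63), Lx2A1 (0.56), L1_Mus3 (0.51), Lx5b (0.47), Lx4B (0.39), Lx7 (0.38) and L1_Rod (0.37), given as log2 fold changes. Lx7 had 1178, 1353 and 1275 CPM under the wild-type label and 1606, 1623, 1659 and 1705 CPM in the mutants (adjusted p = 0.0248). The lowest values were those of L1_Mus1 (0.14), Lx5 (0.15) and L1_Mur2 (0.24), whose sums include the pseudogenes Rps24-ps3, Gm4332 and Gm6988. At intergenic loci these 3 names had 0.58, 0.55 and 0.56.

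With loci at pseudogene exons left out, 28 of the 33 names rose outside spans, as did 42 of all 733 names there (2.80% of all names and placements were called higher). At intergenic loci 29 rose, as did 64 of all 698 names there (4.40% of all names and placements). The 4 that did not pass at intergenic loci were L1_Mur1 (0.35), Lx10 (0.46), Lx2A (0.62) and L1_Mm (0.65). The count of 29 dropped to 4 when the library labelled wild-type replicate 3 was left out, and was 1 without wild-type replicate 1 or mutant replicate 3 or 4, and 0 without mutant replicate 1, with all 33 fold changes positive each time. With no library left out, 625 of all 698 intergenic names had a positive fold change.

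**Figure D4:**
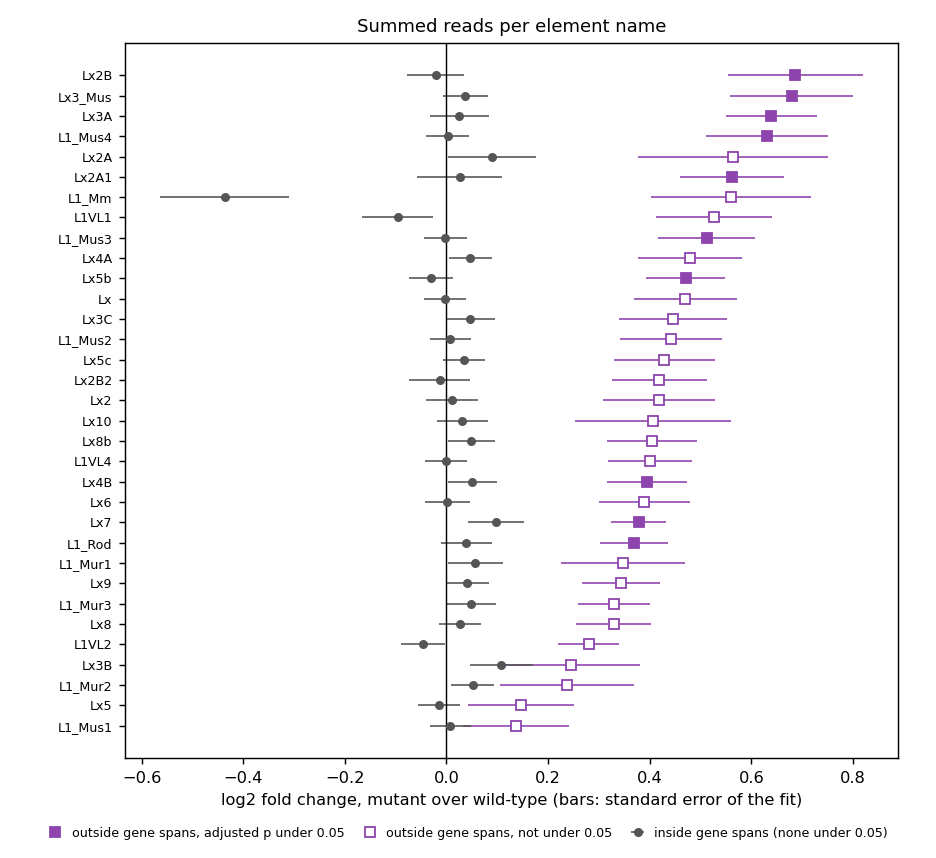
Log2 fold change (mutant over wild-type, edgeR) of the summed reads of each element name outside gene spans (squares, filled where the adjusted p was under 0.05) and inside them (circles); bars are standard errors of the fit. Squares run from 0.14 for L1_Mus1 to 0.69 for Lx2B, while circles lie near 0 apart from L1_Mm.

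Inside genes, older rodent L1 copies lay mostly against the direction of their host. Of 118136 loci inside spans of genes on 1 strand and off their exons, 39897 (33.8%) had the strand of the gene and 78239 the opposite one. The share on the gene's strand was lowest for L1VL (25.3%) and highest for L1_Mm (46.8%). Pooled over all members, loci on the same strand held 778 CPM per Mb and those on the opposite strand 785 under the wild-type label, and 797 and 786 CPM per Mb in the mutants. The groups were not alike in this. L1VL held 721 CPM per Mb on the same and 1006 on the opposite strand under the wild-type label. L1_Mm held 374 and 804 CPM per Mb under that label, but 375 and 496 CPM per Mb in the mutants. Its loci on the opposite strand include the 8 in the span of Erdr1 that are described below. L1_Rod and Lx held more on the same strand under the wild-type label, at 1174 against 1057 and at 919 against 833 CPM per Mb. Because the strand of the RNA was not kept, reads of an L1 RNA and reads of the host's intron cannot be told apart.

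The loci with the most reads inside spans lay mostly at exons of their hosts. The first, Lx7 at chr12:109660692-109661276, overlaps an exon of Rian, a maternally expressed noncoding RNA, and held 658, 731 and 794 CPM under the wild-type label and 807, 1371, 862 and 891 CPM in the mutants (log2 fold change 0.43, adjusted p = 0.657). The next were Lx3B in Snw1, a splicing cofactor, with a log2 fold change of 0.23, and Lx8 in Commd1, a copper and trafficking factor, with 0.33. L1_Mur2 in Serinc1, L1_Mus1 in Zfp369 and Lx9 in Alg11 had 0.13, 0.02 and 0.08. None of the 6 passed the test, and the groups overlapped in all but the Rian locus.

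Of single loci, 7 of the 40665 tested rose (0.0172%, against 0.0213% of all 464695 loci) and 45 fell (0.111%, against 0.0594% of all loci), at an adjusted p under 0.1 from edgeR. Of these 52, 30 lay inside gene spans and 22 outside, and 24 had a mean under 10 reads. Groups did not overlap for 5 of the 7 and 17 of the 45. Neighbouring loci were counted separately: 8 of the 45 falls lay in the span of Erdr1 and 8 in a stretch of chromosome 7, both described below. Of the other repeat loci tested there, 5 of 12 and 17 of 31 also fell. The share of falls among members is therefore not a share of independent events. In 19 of the 45 the range of the mutants included the library labelled wild-type replicate 3, and without it 80 loci fell (0.108% of all 467336 loci did), among them 42 of the 45, while 3 of the 7 rises passed. Without wild-type replicate 2 the count of falls was 13, and it was 26 without mutant replicate 4, and that of rises was 11 without wild-type replicate 1 or mutant replicate 3 and 4 without wild-type replicate 2 or mutant replicate 2. DESeq2, the tool of the authors, called 0 rises and 2 falls.

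All 8 L1_Mm loci in the span of Erdr1 (chrY:90785442-90816465) fell. Erdr1 lies in the pseudoautosomal region, where the X and Y chromosomes share sequence, so that the placement of these reads is uncertain, and it was listed at 0 FPKM in every library. Summed over the 8 loci, the libraries labelled wild-type held 119, 133 and 169 CPM and the mutants 1.06, 10.5, 112 and 26.4 CPM. Mutant replicate 3 was close to the libraries labelled wild-type, and the other mutants were far below them. The largest fall was at chrY:90798715-90798824, with 41, 29 and 34 reads under the wild-type label and 0, 0, 1 and 0 reads in the mutants. Others at positions 90802054, 90799953, 90806984 and 90809580 had log2 fold changes of -5.23, -4.49, -2.67 and -2.29.

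A second run of called loci lay on chromosome 7 between 6601481 and 6643914, outside all gene spans, where 8 of the 11 member loci tested fell, of 14 in all. This window and the Erdr1 span were chosen after their values were seen. The summed level was 45.0, 169 and 3.23 CPM under the wild-type label and 39.9, 11.001, 5.87 and 5.61 CPM in the mutants. The library labelled wild-type replicate 2 was high, that labelled replicate 3 was the lowest of all 7, and mutant replicate 1 was near wild-type replicate 1. All 8 had the plus strand, as had 13 of the 14, and 17 of the 31 other repeat loci tested in the window also fell.

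**Figure D5:**
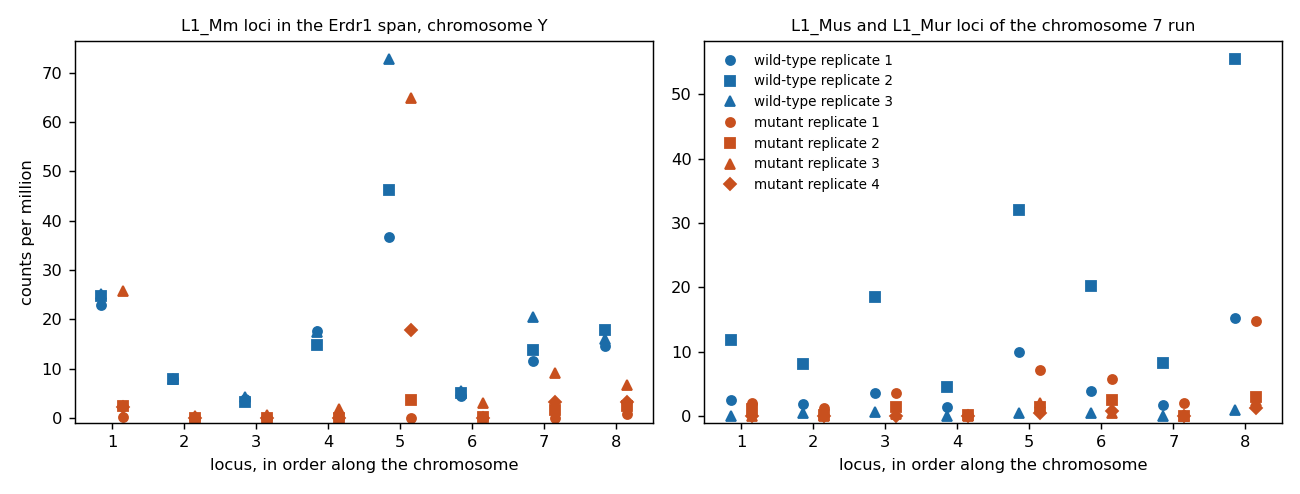
CPM of the 8 called loci in the Erdr1 span (left) and of the 8 called loci of the chromosome 7 window (right), in order along the chromosome; each symbol is 1 library. On the left, mutant replicate 3 stays close to the libraries labelled wild-type at some loci; on the right, the library labelled wild-type replicate 2 is highest at each locus and that labelled replicate 3 is near 0.

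Of the 45 falling loci, 25 lay inside gene spans, 8 of them in Erdr1 and 17 in other hosts. Of the 16 hosts, Dazl and Mael were members of the gene lists examined here (germ cell markers, and Mael also the piRNA pathway). With wild-type replicate 3 left out 14 of the 17 passed the test. L1_Mus3 at chr1:166217733-166222579 lies in an intron of Mael, a factor of the piRNA pathway, and had 32, 35 and 5 reads under the wild-type label and 5, 3, 8 and 6 reads in the mutants (log2 fold change -1.83, adjusted p = 0.00252 from edgeR). Without wild-type replicate 3 this became -2.31. In Sycp1, the filament of the synaptonemal complex, an Lx, an L1VL2 and an L1_Mus1 locus fell by 5.17, 1.70 and 1.41 on the log2 scale, and without that library the values were -5.24, -2.18 and -1.93, with the first no longer called (adjusted p = 0.122 from edgeR). Lx9 in Scml2, a germline Polycomb protein, and Lx8 in 4930447C04Rik, a part of the synaptonemal complex, fell by 0.82 and 0.79. Without that library they had -1.16 and -1.18, and with it the locus in 4930447C04Rik was lower in wild-type replicate 3, at 57 reads, than in any mutant, at 77, 61, 74 and 70 reads.

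Dazl, which encodes an RNA-binding protein needed by germ cells, held 2 falling Lx6 loci. The first, at chr17:50285670-50286002, had 487, 311 and 236 reads under the wild-type label and 171, 172, 186 and 133 reads in the mutants. Its log2 fold change was -0.76 and that of the second, at chr17:50286128-50286247, was -0.91, and at both the mutant range included the library labelled wild-type replicate 3. With it left out they were -0.96 and -1.17. Both lie in a GENCODE transcript of Dazl that keeps an intron, and 120 bases of it are shown because they are the whole of the second locus. Transcript of Dazl, chr17:50286128-50286247, minus strand, all in lower case since no base is singled out:
Lx6 at Dazl: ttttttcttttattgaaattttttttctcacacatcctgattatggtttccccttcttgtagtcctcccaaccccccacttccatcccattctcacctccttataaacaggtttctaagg

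The Lx6 copy is on the plus strand, opposite to Dazl. Dazl itself had 271, 211 and 167 FPKM under the wild-type label and 98.6, 116, 141 and 115 FPKM in the mutants (log2 fold change -0.86, adjusted p = 0.139 from limma), and here the groups did not overlap. Over the 13 hosts of falling loci that could be tested, 12 had a lower fitted FPKM and the median log2 fold change was -0.63. None passed the limma threshold and 4 had an unadjusted p under 0.05. These hosts were chosen by loci called lower in the same libraries, and reads on such a locus can be the host's own. The shared direction is therefore partly set by that choice. With wild-type replicate 3 left out, 7 of the 13 hosts fell, as 3.99% of all 14019 genes did. The 7 were Dazl, Mael, Sycp1, Scml2, 4930447C04Rik, Nr1d2 and Pgm2l1.

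The other hosts held falling loci with many and with few reads. Lx8b in Pgm2l1 had 123, 112 and 70 reads under the wild-type label and 41, 45, 53 and 44 reads in the mutants (log2 fold change -0.88). Lx8 in Far1 had 104, 89 and 68 reads against 16, 33, 51 and 58 reads (-0.86), and Lx5 in Nr1d2, which encodes a nuclear receptor of the circadian clock, had 51, 37 and 34 reads against 17, 6, 18 and 14 reads (-1.27). Lx5 in B630005N14Rik and L1_Mur2 in Atp13a5 fell by 2.11 and 2.99 on the log2 scale. In the first 4 of these 5 hosts the groups did not overlap. L1VL4 in Rarb, a retinoic acid receptor, had 11, 3 and 5 reads under the wild-type label and 0 reads in all 4 mutants. L1_Mus3 in Sec22a, Lx in Ube2e2 and Lx10 in Ube2q2 fell by 3.06, 2.99 and 2.66 on the log2 scale, while these genes themselves had log2 fold changes of 0.16, -0.06 and -0.02. The locus in Ube2q2 had 11, 10 and 10 reads against 0, 1, 3 and 1 reads.

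Of the rises, 5 had groups that did not overlap. L1_Mur3 in C77370 had 1, 1 and 1 reads under the wild-type label and 10, 4, 4 and 11 reads in the mutants (log2 fold change 2.97, adjusted p = 0.0674 from edgeR). L1_Mur3 in Erbb4, a receptor tyrosine kinase, had 2, 0 and 2 reads against 7, 6, 7 and 14 reads (2.83). Lx9 in the noncoding gene A230057D06Rik, Lx3_Mus in Arhgap24 and Lx9 outside spans at chr4:64150177-64150591 rose by 2.35, 1.76 and 1.17 on the log2 scale. All 5 hosts of rising loci had a positive fitted fold change, and none passed the limma test. These hosts too were chosen by loci called in the same libraries, which partly sets their direction.

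The largest fitted rise had overlapping groups. Lx4A at chr7:93098071-93103510, a copy of 5440 bp and so nearly whole, had 2, 0 and 2 reads under the wild-type label and 55, 25, 4 and 1 reads in the mutants (log2 fold change 4.13). Mutant replicates 1 and 2 were high, and mutant replicates 3 and 4 were near the libraries labelled wild-type. GENCODE places an exon of Gm26862 in this copy on the same strand, and 200 bases of it are shown because it was the one called copy over 5 kb that an annotated transcript runs through on its own strand.
Lx4A at Gm26862, chr7:93103046-93103245, plus strand: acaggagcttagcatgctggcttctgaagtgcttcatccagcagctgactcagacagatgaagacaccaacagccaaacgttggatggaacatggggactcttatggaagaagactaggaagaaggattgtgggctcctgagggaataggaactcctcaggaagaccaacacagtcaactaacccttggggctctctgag

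Genes that silence L1 were examined as lists. Of 20 piRNA pathway genes 18 could be tested, all 18 had a lower fitted FPKM in the mutants, and 0 passed the limma test, as 0.00715% of all 13988 genes did in either direction. Their median log2 fold change was -1.09, and 10 had an unadjusted p under 0.05. Tdrkh, a Tudor protein that joins piRNA trimming, had 6.42, 6.84 and 4.31 FPKM under the wild-type label and 2.78, 3.02, 3.43 and 2.74 FPKM in the mutants (-0.84, adjusted p = 0.133). Ddx4, a germ cell helicase, and Pld6, a mitochondrial enzyme of piRNA production, had -1.08 and -0.62. The groups did not overlap in these 3 genes, which had the smallest p, but overlapped in every other gene of the list. Without the library labelled wild-type replicate 3, 15 of the 18 fell, as 3.99% of 14019 genes did.

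The lists of other silencing factors had medians nearer 0, and the difference between lists was not tested. Of 14 heterochromatin genes, 14 had a lower fitted FPKM, the median log2 fold change was -0.22, and 0 passed the test while 8 had an unadjusted p under 0.05. Without the library labelled wild-type replicate 3, 2 of them fell, against 3.99% of all 14019 genes. Suv39h2, Prmt5 and Setdb1, which methylate histones, had -0.26, -0.33 and -0.23, and the groups did not overlap in any of them. Of 9 DNA methylation genes 0 passed, with a median of -0.18 and 1 gene in each direction at an unadjusted p under 0.05. The lowest 2 were Morc1 (-1.61) and Dnmt3l (-0.98), which act in methylation of transposons in male germ cells. Morc1 had 11.1, 26.6 and 1.05 FPKM against 8.05, 2.30, 0.795 and 0.940 FPKM, so that wild-type replicate 3 lay among the mutants. Dnmt3l had 0.883, 7.35 and 0.0754 FPKM against 1.95, 0.424, 0.0813 and 0.0826 FPKM. Its groups overlapped too, and only wild-type replicate 2 was above mutant replicate 1. Hells, a remodeler needed for methylation of repeats, had -0.40, Uhrf1, which brings the maintenance methyltransferase to DNA, 0.22, and Tet2, which oxidises methylated cytosine, -0.18. Of 10 genes that act on L1 RNA 0 passed (1 fell without wild-type replicate 3, against 3.99% of all 14019 genes), with a median of -0.04 and 2 genes in each direction at an unadjusted p under 0.05. Zc3hav1, an antiviral RNA-binding protein, had 0.20, and Samhd1 and Drosha had -0.30 and -0.32.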

How the data were processed

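Whole testes from E14.5 embryos were profiled by rRNA-depleted, random-primed, unstranded RNA-Seq. The authors aligned reads to mm10 with TopHat2 2.0.12 and counted uniquely mapped reads per RepeatMasker element with HTSeq. These deposited counts are raw, and near-identical copies lose reads to the unique-mapping rule. The deposited FPKM values per RefSeq gene were made by the authors with Cuffnorm. In both file headers the break between the names of wild-type replicate 3 and mutant replicate 1 is missing, so columns were taken by position after the names had been matched.

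Members were the loci whose name begins as the rule says; the members, the gene lists, the tests and the windows were chosen with earlier results of these data known. A locus was inside a gene when it overlapped a span of the FPKM table. Loci that averaged 1 read or more (464695) were tested with edgeR 4.0.16 (quasi-likelihood, TMM, R 4.3.3) at a Benjamini-Hochberg adjusted p of 0.1. Sums per name with a mean of at least 10 reads were tested likewise at 0.05, on tables of all repeat names. Genes that averaged 0.5 FPKM or more were tested with limma 3.58.1 on log2(FPKM + 0.5) at 0.05, and their fold changes are on that scale, which understates the change of low genes. Single values were compared by exact two-sided permutation over 35 splits. On simulated data with 200 features changed by 2 on the log2 scale, the test over 464695 loci recovered 85% (all changed loci had a mean of at least 10 reads), that over 1539 sums 100% and that over 13988 genes 100%. They made 9, 8 and 6 false calls. The simulated noise was set in advance and not estimated from these libraries. Recovery of smaller changes, such as those of the sums here, was not examined.

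Named loci were up to 10 rising and 10 falling with the largest fold change among those whose groups did not overlap, the 6 with the most reads inside and outside spans, and the most read outside in each group. Other loci in Mael, Sycp1, Scml2, 4930447C04Rik, Dazl, Pgm2l1, Far1, Nr1d2, B630005N14Rik, Atp13a5 and at Gm26862, and the genes Dnmt3l and Morc1, were named after their values were seen. Named element names were those past 0.05 and the 3 highest and lowest, and named genes the 3 with the smallest p per silencing list. GENCODE M21 (GRCm38) gave exons and pseudogenes; 99.37% of 22809 shared symbols overlapped the spans. Pseudogene sequences were matched to mouse coding sequences with blastn 2.17.0.

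Alternatives were other scalings, DESeq2 1.42.0, other filters, another definition of outside, a replicate block and leaving out each library. Leaving out pseudogene exons, chromosome Y or all annotated genes was added after the data had been seen. Libraries of 1 group differed by more than sampling noise, so each was counted as a sample of its own. Nothing links equal replicate numbers of the groups, and p-values measure the spread between embryos. Reads without molecular identifiers are not independent molecules, so counts understate the error.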

Additional observations from a re-analysis of the deposited data

Results flagged for a closer look

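Of 110 groups of 4 mutant libraries examined, 10 (9.09%) had 1 library whose gap to the nearest of the others passed the 95% limit of Dixon's test, where chance gives about 1 in 20. L1_Mm inside gene spans was 362 CPM in mutant replicate 3, against 244 to 263 CPM in the other mutants, and L1_Mm outside spans was 96.5 CPM in mutant replicate 2, against 135 to 138 CPM.

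In the Erdr1 span mutant replicate 3 held 0.293, 1.76 and 0.587 CPM at the L1_Mm loci starting at chromosome Y positions 90798715, 90802054 and 90799953, where the other mutants had 0, and 2.93 CPM at position 90806984, where they had 0 to 0.275 CPM.

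Among loci with many reads, Lx7 at Rian was 1370.5 CPM in mutant replicate 2 (others 807 to 891), Lx8 at Commd1 293 CPM in mutant replicate 4 (others 233 to 243) and Lx9 at Alg11 144 CPM in mutant replicate 3 (others 112 to 116). In the chromosome 7 window mutant replicate 1 held 39.9 CPM, far from the 5.61, 5.87 and 11.001 CPM of the other mutants.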

How the results depend on the processing

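The direction of the sums and names outside gene spans was kept under every alternative but L1_Mm, while the number of calls was not stable. At the 170605 loci with reads that averaged under 1 read, edgeR with no filter made 0 calls in either direction. At an unadjusted p under 0.05, 1280 of them were higher and 663 lower. Over all 211270 members with reads the counts were 2480 and 1645, against 17834 and 16837 of all 1495720 repeat loci with reads. For single loci, 7 rises became 0 with DESeq2, 4 with no filter and 0 at a mean of at least 10 reads, and 45 falls became 2 with DESeq2, 3 at that mean and 16 with a replicate block. Without 1 library the rises ranged from 4 to 11 and the falls from 13 to 80. Leaving out pseudogene exons brought the log2 fold change outside spans past the threshold for all members (0.44), Lx (0.43), L1_Mus (0.49), L1_Mur (0.38) and L1VL (0.36), and the intergenic definition did so for all members (0.53) and Lx (0.52), while L1_Rod (0.47) then missed it. L1_Rod also missed it over loci that averaged 1 read or more (0.26), with library size only (0.29), with DESeq2's size factors (0.34) and with the block (0.40). L1VL passed with library size only (0.28), DESeq2 (0.33) and over 10 kb from any span (0.49), and L1_Mm outside passed with DESeq2 (0.54) and turned to -0.22 over loci that averaged 1 read or more. Inside spans, where no main call was made, library size only turned the sign for all members (-0.045), L1_Mur (-0.021), L1_Mus (-0.072), L1_Rod (-0.029) and Lx (-0.033). L1_Mus there was also negative over loci that averaged 1 read or more (-0.026), with DESeq2's size factors (-0.023), with DESeq2 (-0.023) and with the block (-0.0014). L1_Mm inside passed with library size only (-0.52) and DESeq2 (-0.46) and was 0.028 without chromosome Y. Element names called higher outside went from 10 to 21 with library size only, 26 with DESeq2, 28 without pseudogene exons and 0 with the block, and names called lower from 0 to 1 with library size only and 1 with DESeq2. With pseudogene exons left out the log2 ratio to other repeats outside spans was 0.25. The cause of these changes was not tested.

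Without 1 library the log2 fold changes ranged from 0.20 to 0.36 for all members outside, 0.32 to 0.41 for L1VL, 0.30 to 0.42 for L1_Rod, 0.21 to 0.39 for Lx and 0.42 to 0.67 for L1_Mm outside, from -0.59 to -0.38 for L1_Mm inside, from -0.038 to 0.030 for L1_Mus inside and from 0.47 to 0.60 for the intergenic sum. The ratio to other repeats inside spans ranged from -0.064 to 0.048. Names called higher ranged from 0 to 28 outside and 0 to 31 at intergenic loci, names called lower from 0 to 1, silencing genes called from 0 to 18 and host genes called from 0 to 7. Single values near 0 also changed sign: the genes Alg11 (-0.0020 to 0.034), Erbb4 (-0.031 to 0.080), Snw1 (-0.022 to 0.075) and Ube2q2 (-0.076 to 0.014), and the loci L1_Mus1 at chromosome 13 position 65297743 (-0.066 to 0.060), Lx9 at chromosome 8 position 22069544 (-0.038 to 0.14), L1_Mus1 at chromosome X position 79190355 (-0.033 to 0.20) and Lx5 at chromosome 3 position 119707238 (-0.014 to 0.21). L1_Mus1 at chromosome 13 position 65297743 was -0.0090 with DESeq2, -0.0092 with DESeq2's size factors and -0.055 with library size only, and L1_Mus1 at chromosome X position 79190355 was -0.0042 with library size only. Snw1 was -0.0090 with the block.

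Equal replicate numbers did not mark pairs: the deviations of same-numbered libraries correlated at 0.03, -0.08 and 0.02. With the replicate number as a block the intergenic sum was 0.47 (adjusted p = 0.215), and 0 intergenic names were called.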

Other observations

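In the chromosome 7 window, where both L1 and other repeat loci were called lower, the replicates 1, 2 and 3 labelled wild-type held 236, 630 and 14 reads of older rodent L1 loci and mutant replicates 1 to 4 held 151, 40, 20 and 21 reads. The number of intergenic loci with any read was 24682, 20931 and 27660 under the wild-type label and 35882, 26827, 34360 and 40607 in the mutants, and these groups overlapped. Inside gene spans that number was 42731, 36765 and 39312 against 39662, 37865, 37129 and 41074. Neither count was scaled for depth.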
